A study of Mus musculus with 4 samples.

Results

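Transcripts of 9 chemokine and tissue-homing receptors (Ccr4, Ccr8, Ccr9, Cxcr3, Cxcr4, Cxcr5, Cxcr6, Gpr15 and Gpr83) were compared between induced regulatory T cells (induced Treg cells) labelled WT and labelled MSC KO. All 9 were found by gene symbol, among 22120 symbols shared by the deposited tables. Sorted naive T cells of WT and of MSC KO mice, all of the C57BL/6 strain, had been stimulated for 3 days through CD3 and CD28 by coated antibodies (labelled 1 µg/ml), with 2 ng/ml of TGF-beta, which induces the Treg factor Foxp3. The Msc gene encodes musculin (MSC), a transcription factor of the basic helix-loop-helix class, and the labels do not say how the gene was disrupted, in which cells, or the age of the mice. There were 2 libraries per group, deposited as 2 tables that each pair the same-numbered WT and MSC KO libraries. Their values are taken to be FPKM (mapped fragments scaled to transcript length and to library size), so that levels could be set against each other between genes.

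Chemokine receptors are membrane receptors that couple to inhibitory G proteins and steer cells along gradients of small secreted proteins, the chemokines. Which receptors a T cell carries sets the tissues it can enter. CCR7 brings naive cells to lymph nodes, and activated and regulatory T cells carry receptors for inflamed skin, lung, gut or B cell follicles. CCR4 and CCR8 are known from Treg and type 2 helper cells, CXCR3 from type 1 helper cells, CXCR5 from follicular helper cells, and GPR15 directs T cells, Treg cells among them, to the large intestine.

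In outline, both MSC KO-labelled libraries held about 4 times as much Gpr15 and about 2 times as much Ccr4 as the WT library of the same table. They held less Cxcr4 and Gpr83. Ccr8 was the most abundant receptor of the 9 in all 4 libraries. No difference of a receptor passed an adjusted p of 0.05 over all genes (limma), in a fit with 1 residual degree of freedom.

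Estimated depth was 25500000 to 35200000 fragments per library. Msc itself was at 0.0243 and 0.0178 FPKM in WT 1 and WT 2 and at 0.331 and 0.939 FPKM in MSC KO 1 and MSC KO 2, so the transcript went against the labels. These are about 1.08, 1.09, 16.2 and 55.5 fragments with its longest coding transcript, and the deleted stretch is not named in the labels. Directions are therefore given for the libraries labelled MSC KO and WT. Foxp3 was at 62.8 and 66 FPKM in the WT libraries, as against 2.97 and 7.05 FPKM under the MSC KO label. The defining Treg transcript was thus low in the latter. Il2ra was at 302 and 317 FPKM in WT, as against 364 and 307 FPKM under the MSC KO label. Ctla4 was at 112 and 120 FPKM in WT and higher, at 217 and 188 FPKM, under that label. The 8 T cell markers checked summed to 1862 to 2097 FPKM per library, and 6 B cell markers, mostly Cd79b, summed to 5.16 to 7.44 FPKM. Of 7 mast cell and basophil markers 5 were listed at 0 throughout, and Kit was at 10.2 and 9.81 FPKM in WT 1 and WT 2 and at 2.47 and 14.9 FPKM in MSC KO 1 and MSC KO 2. Of 8 markers of CD8, NK and gamma delta T cells 6 were in the tables, with sums of 12.5, 13.2, 11.4 and 23.5 FPKM in the same order of libraries, mostly Cd8b1 (19.1 FPKM in MSC KO 2). Of 8 myeloid markers 7 were in the tables, and they summed to 2.53 and 1.76 FPKM in WT and to 4.6 and 4.58 FPKM under the MSC KO label. Most of that sum was Cd68, and among the low ones Cd14 was higher (0.06 and 0.0218 FPKM, as against 0.19 and 0.159 FPKM) and Csf1r lower (0.0441 and 0.0129 FPKM, as against 0 in both). The part of these other cell types in the receptor differences was not tested. WT 1 and WT 2 lay closer together than MSC KO 1 and MSC KO 2. The median absolute log2 difference over 6093 genes with a mean of at least 10 FPKM was 0.06 between the former and 0.15 between the latter. Whether the replicates are separate mice or cultures is not in the labels, so p-values cover only how these samples vary, and that spread may be technical. As these are bulk samples, fewer cells of a type and less RNA per cell cannot be told apart.

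Of the 9 genes, 6 lie on chromosome 9 (positions as deposited, on mm9). Musculin belongs to a family of factors that bind E-boxes, whose letters are CANNTG and read the same on both strands. The 250 bases before the start site are therefore shown for Gpr15 and Ccr4, whose values were higher by the most on the log2(FPKM + 1) scale. Of the tested receptors that were lower, Cxcr4 is shown. Gpr83 was lower by more on the mean of the tables (-1.11, against -0.93 for Cxcr4), but by less in the first table (-0.75, against -0.83). The stretches come from RefSeq on GRCm38.p6, where 8 of the 9 receptors, all but Cxcr5, had a promoter entry. The Gpr15 stretch is chr16:58718873-58719122, the Ccr4 stretch chr9:114496545-114496794 and the Cxcr4 stretch chr1:128592300-128592549, all on the minus strand and printed 5′ to 3′, with E-boxes in capitals.
Gpr15: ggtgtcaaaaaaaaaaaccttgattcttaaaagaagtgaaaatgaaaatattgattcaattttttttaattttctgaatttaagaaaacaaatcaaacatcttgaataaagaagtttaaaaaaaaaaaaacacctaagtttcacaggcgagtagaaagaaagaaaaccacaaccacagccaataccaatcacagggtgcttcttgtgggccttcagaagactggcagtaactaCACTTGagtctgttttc
Ccr4: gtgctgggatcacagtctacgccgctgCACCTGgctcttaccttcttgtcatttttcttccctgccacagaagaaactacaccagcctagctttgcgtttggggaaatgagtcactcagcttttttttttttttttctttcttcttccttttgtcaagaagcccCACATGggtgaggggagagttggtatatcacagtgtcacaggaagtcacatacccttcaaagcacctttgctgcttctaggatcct
Cxcr4: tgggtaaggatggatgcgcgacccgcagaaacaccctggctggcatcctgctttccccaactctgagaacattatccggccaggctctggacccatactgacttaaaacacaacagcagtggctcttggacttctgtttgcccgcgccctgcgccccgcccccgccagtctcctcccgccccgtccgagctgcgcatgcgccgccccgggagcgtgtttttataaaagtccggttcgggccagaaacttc

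Gpr15 had 1 E-box, 17 bases before the start site. Ccr4 had 2, which begin 223 and 86 bases before it, and Cxcr4 had none in this window. Of the 8 promoters 6 held the motif, and so did 66.2% of 32851 promoter entries of the same length. Gpr83, Ccr9, Cxcr3 and Cxcr6 were the others with a match, and Ccr8 was without one. Of the tested receptors that were lower, Gpr83 thus had 2 matches and Cxcr4 had none. The more specific form CAGCTG was in Gpr83 alone of the 8, and in 13% of all entries. A match is a run of letters and not a bound site.

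**Figure D1:**
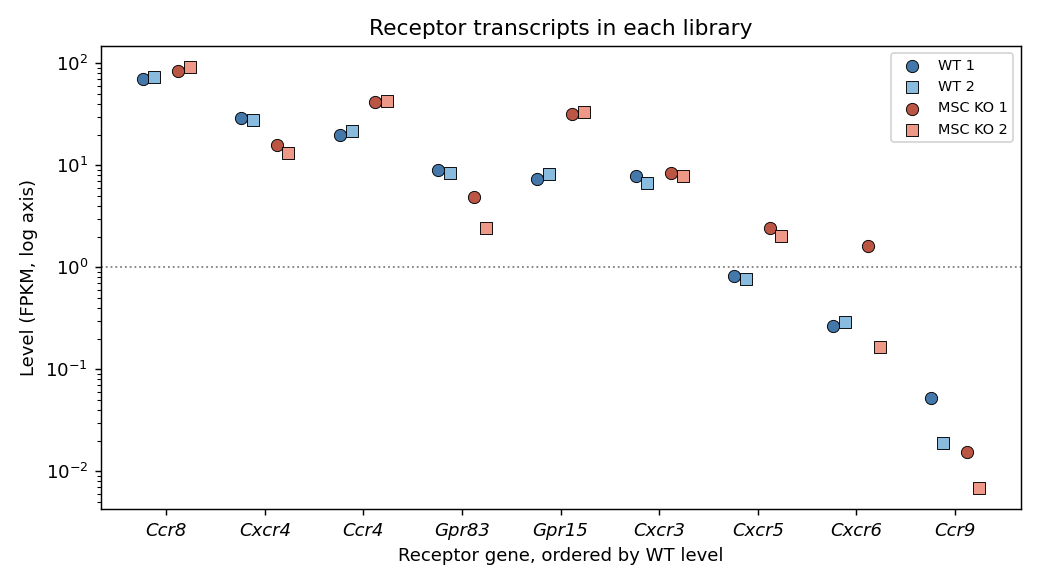
Level of each of the 9 receptor transcripts in FPKM (log axis) in WT 1 and WT 2 (blue) and MSC KO 1 and MSC KO 2 (red); circles are the first table, squares the second, and the dotted line is 1 FPKM. Gpr15 lies between 7.33 and 8.15 FPKM in WT and between 31.5 and 33 FPKM under the MSC KO label, while Cxcr6 is above 1 FPKM in MSC KO 1 alone.

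In the WT libraries the order of levels was Ccr8, Cxcr4, Ccr4, Gpr83, Gpr15, Cxcr3, Cxcr5, Cxcr6 and Ccr9. The ranges of Gpr15 and Cxcr3 overlapped, and those of the other neighbours did not. At 1 FPKM or more were 6 of the 9 in each WT library, 8 in MSC KO 1 and 7 in MSC KO 2. In the MSC KO-labelled libraries the order by mean was Ccr8, Ccr4, Gpr15, Cxcr4, Cxcr3, Gpr83, Cxcr5, Cxcr6 and Ccr9. The nearest ranges there were those of Gpr83 and Cxcr5, at 2.44 and 2.43 FPKM. Gpr15 thus stood in the fifth place in WT and in the third under the MSC KO label, and Cxcr4 in the second and the fourth. In each library, Ccr8 exceeded 87.3% to 90.4% of the symbols at 1 FPKM or more.

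Levels between tables may be scaled apart, but a ratio of receptors within a library is free of that scaling. Summed over the 9 receptors, the level was 145 and 148 FPKM in WT 1 and WT 2 and 191 and 194 FPKM in MSC KO 1 and MSC KO 2. Ccr8 made up 48.8% and 50% of that sum in WT and 44.3% and 47.5% in MSC KO-labelled libraries. The share of Gpr15 was 5.05% and 5.5% in WT and 16.5% and 17% in MSC KO-labelled libraries. The share of Ccr4 was 13.7% and 14.7% against 21.8% and 22.2%. The share of Cxcr4 was 20.1% and 18.8% in WT against 8.36% and 6.83%. The shares of the groups did not overlap for these 3 receptors, for Ccr8, or for any other of the 9 but Cxcr6. Such a separation was therefore not particular to Gpr15, Ccr4 and Cxcr4. The share of Cxcr6 was 0.184% and 0.195% in WT, against 0.842% in MSC KO 1 and 0.0855% in MSC KO 2. Per Cxcr4 level, the Gpr15 level was 0.252 and 0.292 in WT and 1.97 and 2.49 in the MSC KO-labelled libraries. Within each library, then, Cxcr4 exceeded Gpr15 in WT, and Gpr15 exceeded Cxcr4 under the MSC KO label.

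**Figure D2:**
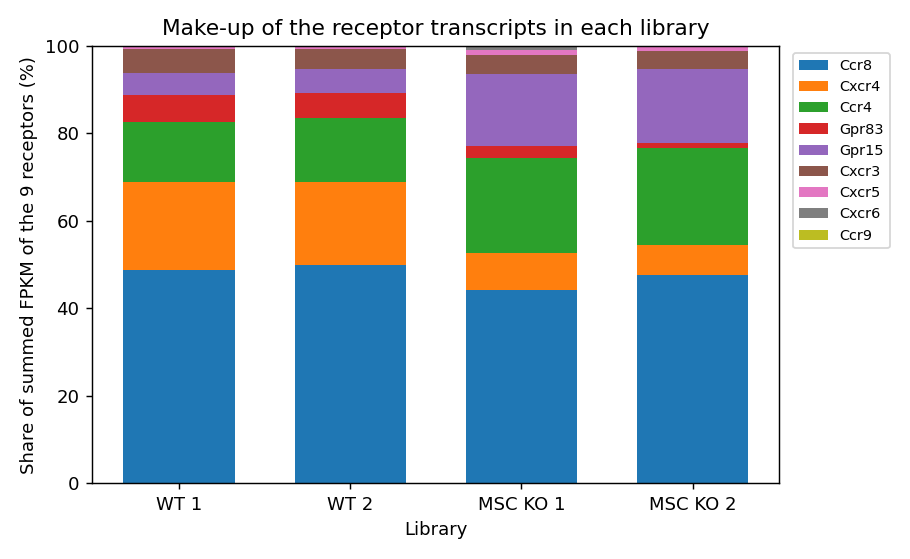
Share of the summed FPKM of the 9 receptors (%) that each receptor takes in each of the 4 libraries, drawn as stacked bars. Ccr8 takes 44.3% to 50% everywhere, and Gpr15 takes 5.05% and 5.5% in WT against 16.5% and 17% in the MSC KO-labelled libraries.

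In all, 10587 genes averaged 1 FPKM or more and entered limma, with the table as a blocking factor. An adjusted p of 0.05 was passed by 0.00945% of them, which is 1 gene, the small RNA gene Rnu73b. Of the 9 receptors 7 entered the fit, since Ccr9 and Cxcr6 stayed under the filter, and Cxcr5 entered only through its level in the MSC KO-labelled libraries. By limma 0 of the 7 passed. Cxcr5 had to differ to be tested, so the counts that follow are over the other 6. At an unadjusted p under 0.05 there were 3 higher and 2 lower, where 9.21% of all genes were higher and 11.2% lower by that rule (20.4% together). The differences had 1 direction in both tables in all 6, as in 68.6% of all genes. Of these 4 were higher (31.2% of all genes) and 2 lower (37.5%). The groups did not overlap for 5 of the 6, all but Cxcr3, as for 59.1% of all genes. The median difference of the 6 was 0.21 on the log2(FPKM + 1) scale, against -0.02 over all genes tested. Of all genes tested, 387 likewise passed the filter through 1 group, and without them the shares were 8.69% and 11% at that p, 30.4% and 37.8% in 1 direction, and 58.5% not overlapping. The receptors were chosen with earlier results of these data known, so these counts describe them and are no test of the set.

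**Figure D3:**
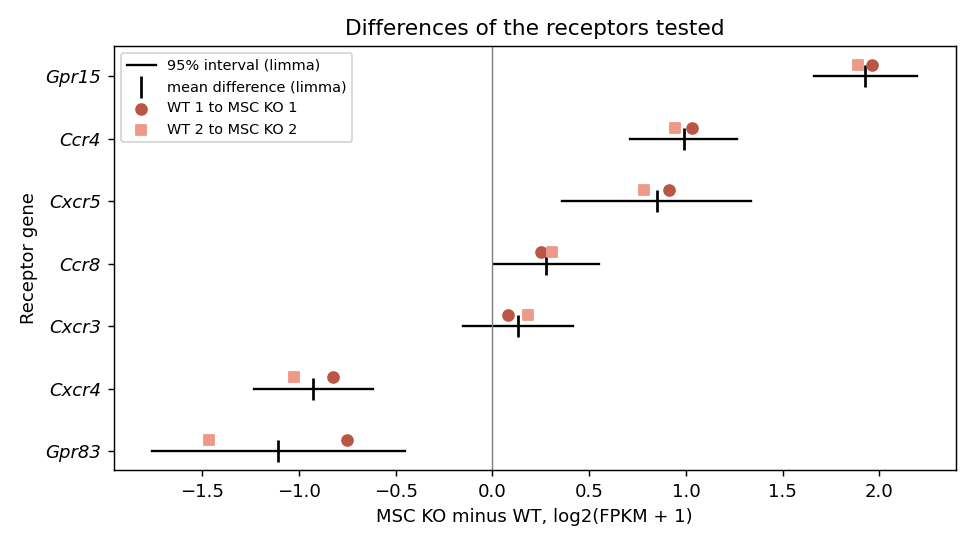
Difference MSC KO minus WT on the log2(FPKM + 1) scale for the 7 receptors tested; vertical ticks are the limma mean, horizontal lines its 95% interval, circles the first table and squares the second. Gpr15 has the largest difference (1.93), and Cxcr4 and Gpr83 lie below 0 in both tables.

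Among receptors that were higher, Gpr15 stood first. It was at 7.33 FPKM in WT 1 and 31.5 FPKM in MSC KO 1, then at 8.15 FPKM in WT 2 and 33 FPKM in MSC KO 2. Both MSC KO-labelled libraries were above both WT libraries, as for 26.6% of all genes tested. The ratio of MSC KO 1 to WT 1 was 4.3, and that of MSC KO 2 to WT 2 was 4.04. The limma difference was 1.93 ± 0.09 (SE; 95% interval 1.66 to 2.2; adjusted p = 0.1). It was the 1 receptor at least 2-fold higher in both tables, a rule met by 1.32% of all genes, and none was 2-fold lower in both (0.812%). With a pseudocount of 0.1 Cxcr5 met it too (1.95% of all genes). In the authors' deposited table of WT 2 and MSC KO 2, which tests 1 library against 1, Gpr15 was called (q = 0.03), as were 0.353% of tested symbols in that direction. In their first table it was not called (q = 0.0883), where 0.656% of tested symbols were, 0.504% with a higher MSC KO value. Gpr15 lies on chromosome 16 (mm9, 58716725 to 58719206 in the first table). The call depended on settings. Gpr15 passed with no table block (adjusted p = 0.0257, limma), with small RNA symbols left out (0.0433), without MSC KO 1 (0.0157) and without MSC KO 2 (0.00947), where 1.45%, 0.249%, 21.6% and 25.2% of all genes passed. Over the 12 alternatives its adjusted p ran from 0.00947 to 0.32.

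Ccr4 encodes the receptor for CCL17 and CCL22. It was at 19.9 FPKM in WT 1 and 41.7 FPKM in MSC KO 1, then at 21.8 FPKM in WT 2 and 42.9 FPKM in MSC KO 2. The groups did not overlap. The ratio of MSC KO 1 to WT 1 was 2.1, and that of MSC KO 2 to WT 2 was 1.97. On the log2(FPKM + 1) scale the difference was 0.99 ± 0.09 (95% interval 0.71 to 1.26; adjusted p = 0.118, limma). It passed with no table block (adjusted p = 0.0374, limma), as did 1.45% of all genes. With 1 library left out, the difference ran from 0.92 to 1.05. The authors' deposited tables did not call Ccr4 (q = 0.384 and 0.367). Its locus is on chromosome 9 (mm9, 114399433 to 114405662).

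Cxcr5, the receptor for CXCL13 that guides cells into B cell follicles, was higher from a low level. It was at 0.82 FPKM in WT 1 and 2.43 FPKM in MSC KO 1, then at 0.767 FPKM in WT 2 and 2.04 FPKM in MSC KO 2. The groups did not overlap, and the ratios were 2.96 and 2.66. The difference on the log2(FPKM + 1) scale was 0.85 ± 0.16 (adjusted p = 0.155, limma), and with a pseudocount of 0.1 it was 1.38. With 1 library left out, the difference on the log2(FPKM + 1) scale ran from 0.76 to 0.94. B cells carry Cxcr5 as well, and the 6 B cell markers summed to 7.44 and 7.05 FPKM in WT and to 6.39 and 5.16 FPKM under the MSC KO label. Their part in the Cxcr5 difference was not tested. The deposited locus (chromosome 9, mm9, 44307218 to 44334514) overlaps that of Bcl9l, which has a row of its own (4.05 and 4.19 FPKM in WT, 2.25 and 2.39 FPKM under the MSC KO label). The labels do not say whether counting used strand, so reads of the overlapping genes may be split between them, and the effect on Cxcr5 was not tested.

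Ccr8, whose ligand is CCL1, was at 70.9 FPKM in WT 1 and 84.6 FPKM in MSC KO 1, then at 74.2 FPKM in WT 2 and 92 FPKM in MSC KO 2. The groups did not overlap, but the difference was small. It was 0.28 ± 0.09 on the log2(FPKM + 1) scale (95% interval 0.01 to 0.55; adjusted p = 0.238, limma). With 1 library left out, the difference ran from 0.22 to 0.34. The Ccr8 level per Ccr4 level was 3.57 and 3.4 in WT and 2.03 and 2.14 in MSC KO-labelled libraries. Ccr8 lies on chromosome 9 (mm9, 120001250 to 120004024).

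Cxcr3, the receptor for CXCL9, CXCL10 and CXCL11, was at 7.89 FPKM in WT 1 and 8.4 FPKM in MSC KO 1, then at 6.71 FPKM in WT 2 and 7.78 FPKM in MSC KO 2. The groups overlapped, as WT 1 was above MSC KO 2. The difference was 0.13 ± 0.09 on the log2(FPKM + 1) scale (adjusted p = 0.489, limma). Its 95% interval was -0.15 to 0.42, which leaves out a 2-fold change in either direction on that scale. The locus is on the X chromosome (mm9, 98926874 to 98929486).

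The receptors that were lower were Cxcr4 and Gpr83. Cxcr4, which holds cells near sources of CXCL12 such as bone marrow stroma, was at 29.1 FPKM in WT 1 and 16 FPKM in MSC KO 1, then at 27.9 FPKM in WT 2 and 13.2 FPKM in MSC KO 2. Both MSC KO-labelled libraries were below both WT libraries, as for 32.5% of all genes tested. WT held 1.82 times the MSC KO-labelled level in the first table and 2.11 times in the second. The difference was -0.93 ± 0.1 (95% interval -1.23 to -0.62; adjusted p = 0.121, limma). With 1 library left out, the difference ran from -1.05 (without MSC KO 1) to -0.8 (without MSC KO 2). Cxcr4 lies on chromosome 1 (mm9, 130484775 to 130488876).

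Gpr83 encodes a receptor known for its high level in Foxp3-positive Treg cells. It was at 8.94 FPKM in WT 1 and 4.91 FPKM in MSC KO 1, then at 8.48 FPKM in WT 2 and 2.44 FPKM in MSC KO 2. The groups did not overlap, and MSC KO 2 was the lowest library. The WT level was 1.82 times the MSC KO-labelled level in the first table and 3.48 times in the second. The difference was -1.11 ± 0.22 (95% interval -1.76 to -0.45; adjusted p = 0.16, limma). Its size hung on single libraries, being -0.72 without MSC KO 2 and -1.5 without MSC KO 1. Foxp3, given above, was also lower in both MSC KO-labelled libraries. Of these, MSC KO 1 held the lower Foxp3 level and MSC KO 2 the lower Gpr83 level. The part of Foxp3 in the Gpr83 difference was not tested. The Gpr83 locus is on chromosome 9 (mm9, 14664669 to 14675212).

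Cxcr6 and Ccr9 lie side by side on chromosome 9 (mm9, 123698627 to 123761020 for the Cxcr6 row, which shares its locus with Fyco1, and 123676328 to 123692575 for Ccr9). Cxcr6, the receptor for CXCL16, was at 0.266 FPKM in WT 1 and 1.61 FPKM in MSC KO 1, then at 0.289 FPKM in WT 2 and 0.165 FPKM in MSC KO 2. It was thus high in 1 library, and the tables went in opposite directions. At the estimated depth these values correspond to about 13, 86.1, 19.4 and 10.7 fragments with its longest coding transcript. Ccr2, a receptor for inflammatory chemokines chosen after its values were seen, showed the same library at the top. It was at 0.782 FPKM in MSC KO 1, against at most 0.0733 FPKM in the other libraries. Fyco1 was at 1.98 and 2.05 FPKM in WT, as against 1.56 and 2.43 FPKM under the MSC KO label, and its part in the Cxcr6 values was not tested. In the fit with no filter on low values the Cxcr6 difference was 0.45 ± 0.35 (adjusted p = 0.597, limma).

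Ccr9, the receptor for CCL25 that directs cells to the small intestine, was at 0.052 and 0.0189 FPKM in WT 1 and WT 2 and at 0.0156 and 0.00682 FPKM in MSC KO 1 and MSC KO 2. With its longest coding transcript of 5197 bp these are at most 6.89 fragments in any library, so a difference was not detectable at this depth.

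**Figure D4:**
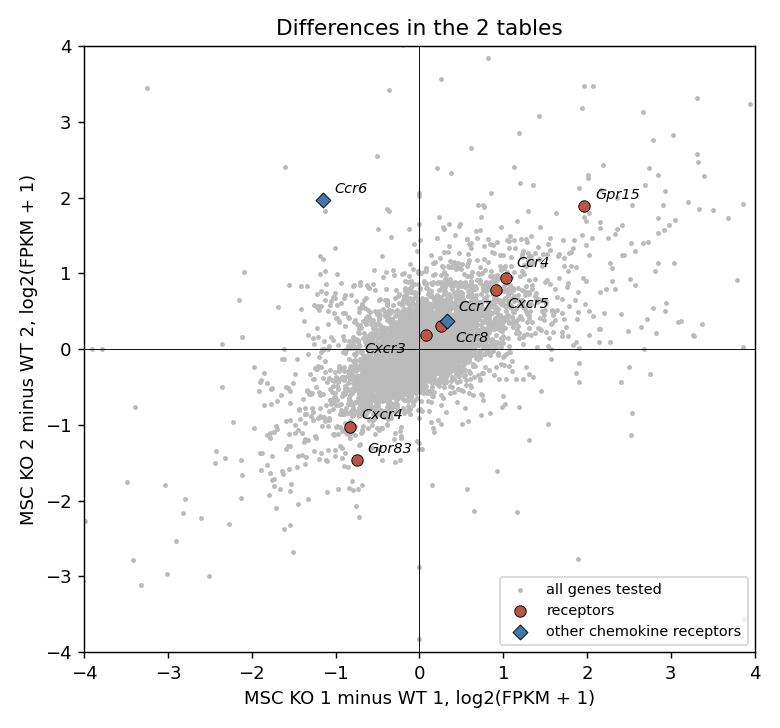
Each gene tested is a grey point at its difference in the first table (x) and the second table (y), on the log2(FPKM + 1) scale; red circles are the 7 receptors, blue diamonds Ccr6 and Ccr7, and 88 genes lie beyond the axes. Gpr15 is at 1.96 and 1.89, and Ccr6 lies on opposite sides of 0 in the 2 tables.

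Other chemokine receptors came from a list of 20 names, of which 16 were in the tables and 3 entered the fit. By limma 0 of the 3 passed, and 1 had an unadjusted p under 0.05 (20.4% of all genes). Their median difference was 0.35, and 2 were higher in both tables (31.2% of all genes). Ccr7, the lymph node homing receptor, was at 221 and 229 FPKM in WT, as against 279 and 295 FPKM under the MSC KO label (0.35 ± 0.08 on the log2 scale, adjusted p = 0.189, limma). It was more abundant than any of the 9 receptors. Ccr6, the receptor for CCL20 known from Th17 cells, was at 24.4 FPKM in WT 1 and 10.4 FPKM in MSC KO 1, but at 27.7 FPKM in WT 2 and 111 FPKM in MSC KO 2. The authors' deposited table called Ccr6 in the second table (q = 0.0143) and not in the first (q = 0.409). Its 2 tables thus disagreed in direction, unlike those of the 7 receptors. Ccrl2, a chemokine-binding receptor, was at 1.1 and 1.13 FPKM in WT, as against 1.73 and 1.67 FPKM under the MSC KO label. Cxcr2, best known from neutrophils, reached 1 FPKM in MSC KO 1 alone (0.572 and 0.652 FPKM in WT, 1 and 0.829 FPKM under the MSC KO label).

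Of 12 ligands on a list for the 9 receptors, all in the tables, 4 entered the fit and 0 passed by limma. The list held no ligand of GPR15, so none is described for that receptor. Ccl22 passed the filter only through the MSC KO-labelled libraries. Of the other 3, with a median difference of -0.15, 1 was lower at an unadjusted p under 0.05 by limma (11.2% of all genes). The CCR8 ligand gene Ccl1 was at 24.8 FPKM in WT 1 and 2.6 FPKM in MSC KO 1, then at 31.7 FPKM in WT 2 and 0.0877 FPKM in MSC KO 2 (-3.88 ± 0.57, adjusted p = 0.14, limma). The receptor gene Ccr8 was slightly higher in the same libraries. The CCR4 ligand gene Ccl22 was at 0.305 and 0.523 FPKM in WT, as against 0.958 and 2.43 FPKM under the MSC KO label (0.88 ± 0.24, adjusted p = 0.212, limma). Ccl17, the other CCR4 ligand gene, was not tested, its mean being below 1 FPKM. It was at 0.102 and 0.0738 FPKM in WT, as against 1.19 and 0.309 FPKM. Ccr4 and both of its ligand genes had higher values in each MSC KO-labelled library than in either WT library, as had 26.6% of all genes tested. Ccl22 was tested only through its level in those libraries and Ccl17 was under the filter, so no joint pattern is drawn from them. Cxcl12, the CXCR4 ligand gene, was at 2.49 and 3.09 FPKM in WT, as against 2.02 and 3.09 FPKM under the MSC KO label. The CCR9 ligand gene Ccl25 was at 1.12 and 1.46 FPKM in WT, as against 0.908 and 1.22 FPKM under the MSC KO label.

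Of 15 other homing and egress genes, all tested, 3 were higher and 8 lower in both tables, 0 passed by limma, and the median difference was -0.17. At an unadjusted p under 0.05 there were 1 higher and 3 lower. The shares over all genes tested were 31.2% higher and 37.5% lower in both tables, and 9.21% higher and 11.2% lower at that p. Itgae and Itga4 passed the filter only through the WT libraries, and over the other 13 there were 1 higher and 1 lower at that p, with a median of -0.13. Itgae, the CD103 integrin chain that binds epithelium, was at 3.58 and 3.99 FPKM in WT, as against 1.35 and 0.393 FPKM. Itga4, the integrin chain of gut homing, was at 2.29 and 2.47 FPKM in WT, as against 0.846 and 1.15 FPKM. Fut7, a fucosyltransferase of leukocytes, was at 44.5 and 42.2 FPKM in WT, as against 7.91 and 29.5 FPKM. Itgb7, another integrin gene of the list, was at 87.6 and 85 FPKM in WT, as against 85.1 and 56.9 FPKM. As Itga4 and Itgae were tested only through their WT level, their lower values are not set against the higher Gpr15.

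**Figure D5:**
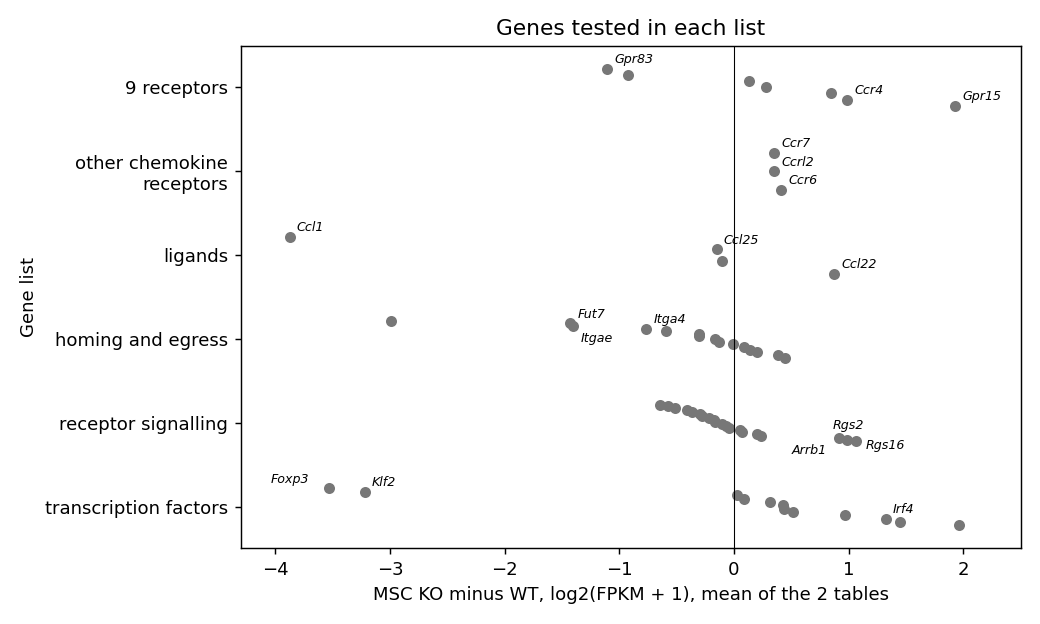
Difference MSC KO minus WT on the log2(FPKM + 1) scale for the genes tested in each of 6 lists, 1 point per gene, with some of the genes described in the text named. Ccl1 lies at -3.88, Foxp3 at -3.53 and Klf2 at -3.22, while Gpr15 lies at 1.93.

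Downstream of the receptors, 20 genes of G protein signalling, desensitization and motility were all tested. Of these 4 were higher and 12 lower in both tables (31.2% and 37.5% of all genes), and the median difference was -0.13. By limma 0 passed, with 3 higher and 4 lower at an unadjusted p under 0.05 (9.21% and 11.2% of all genes). Arrb1, an arrestin that uncouples activated receptors, was at 8.24 and 8.68 FPKM in WT, as against 16.6 and 17.2 FPKM under the MSC KO label (0.92 ± 0.09, adjusted p = 0.12, limma). Rgs16 and Rgs2, which shorten G protein signals, were higher too in both tables. Rgs16 was at 41.7 and 43 FPKM in WT, as against 71.8 and 112 FPKM, and the authors' deposited table called it in the second table. Rgs2 was at 4.51 and 4.92 FPKM in WT, as against 11.4 and 9.36 FPKM. Rhoh, a GTPase of blood cells, was at 26.2 and 26.9 FPKM in WT, as against 18.3 and 15 FPKM.

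Among 14 transcription factor genes tied to these receptors 12 were tested, and 9 were higher and 2 lower in both tables. By limma 0 passed (7 higher and 2 lower at an unadjusted p under 0.05), and the median difference was 0.43. Of all genes tested 31.2% were higher and 37.5% lower in both tables, and 9.21% were higher and 11.2% lower at that p. Without 1 gene that passed the filter through 1 group, 6 were higher and 2 lower at that p. Klf2, known for keeping T cells quiescent, was at 56.7 and 53 FPKM in WT, as against 4.76 and 5.24 FPKM under the MSC KO label. Irf4, an activation factor, was at 63.1 and 65.9 FPKM in WT, as against 166 and 160 FPKM. A further 3 were picked after their values were seen, for the cell types or receptors they are known for. Ahr, a ligand-activated factor known to support Gpr15, was at 5.9 and 6.39 FPKM in WT, as against 26.4 and 12.8 FPKM. Gata3, the factor of type 2 helper cells, was at 22.7 and 22.1 FPKM in WT, as against 33.7 and 31.1 FPKM. Tbx21, the factor of type 1 helper cells, was at 18.3 and 18.5 FPKM in WT, as against 22.1 and 28.3 FPKM. For these factors the groups did not overlap, as for 59.1% of all genes tested. The groups did overlap for Smad3 (2.81 and 3.29 FPKM in WT, 3.88 and 2.78 FPKM under the MSC KO label). They also overlapped for Stat6 (54.6 and 58 FPKM in WT, 54.7 and 59.8 FPKM). The part of these factors in the receptor levels was not tested.

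Some genes had profiles close to those of Gpr15, Ccr4 and Cxcr4, measured as the largest gap over the 4 libraries after centring each gene on its own mean of log2(FPKM + 1). Nearest to Gpr15 were Slc15a3 (8.42 and 8.87 FPKM in WT, 35.6 and 32.1 FPKM under the MSC KO label; gap 0.14) and Pdpn (14.2 and 14.7 FPKM, 55.9 and 67.4 FPKM; gap 0.15). Nearest to Ccr4 were Ide (gap 0.05) and Plk3 (gap 0.06). Nearest to Cxcr4 were Rasa3 (gap 0.04) and Rad51ap1 (gap 0.07). These profiles share the same 4 libraries and are given as a description.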

How the data were processed

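RNA-seq libraries of induced Treg cells, 2 labelled WT and 2 labelled MSC KO, were prepared with a TruSeq kit, per the labels' protocols. TopHat and the build mm9 are named per the submitters' processing notes. Neither program versions nor an annotation is given in the sources used here. The authors deposited 2 tables in the layout of Cuffdiff's gene test, whose values were taken as FPKM because of that layout. The tables also hold the authors' p-value and q-value of 1 library against 1. Whether both tables were normalized together is not stated.

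Rows with no symbol were left out (49.9% to 54.1% of summed FPKM), of repeated symbols the row with the highest mean was kept, and 9 symbols were dropped (3 whose loci did not overlap, 6 whose estimate failed). Symbols that read as dates, 24 per table, were dropped too. Values were taken as log2(FPKM + 1), which understates the fold of low genes, for genes with a mean of at least 1 FPKM. Limma 3.58.1 in R 4.3.3 fitted label and table, with a trend in the prior variance, and p-values were two-sided and adjusted by Benjamini-Hochberg over the genes tested. The table was a block because scaling may differ between tables. The fit was tested on simulated data that had the same spread in both groups. The MSC KO-labelled libraries lay further apart than the WT ones, which that test does not cover. Depth was inferred, approximately, from what 1 fragment is worth among the lowest values, in 31 to 49 genes per library that have 1 transcript of over 2500 bp in GENCODE M21, taking only depths above 15000000 fragments. Motifs were searched in Python 3.11.15 with pandas 2.3.3.

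The receptors, lists and tests were chosen with earlier results of these data known. Named genes were the 9 receptors, up to 4 per list with the largest smaller difference of the 2 tables, ligands and other chemokine receptors with at least 1 FPKM in a library, and the 2 nearest profiles to the 3 receptors with the largest smaller difference, leaving out predicted genes, microRNA and small nucleolar symbols and Rik symbols. Some genes that the rule would name are not reported here.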

Additional observations from a re-analysis of the deposited data

How the results depend on the processing

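The sign of the difference of each of the 7 receptors tested was the same in all 12 alternatives run for it. The count of genes passing, 1 with the table as a replicate block, was 153 with no replicate block (the paired tables ignored), 26 with small RNA symbols left out, and 0 with no filter on low values, quantile normalization or a prior without trend. Without a library, in fits with no block that take a lone sample to vary like the other group, it ran from 0 (without WT 1) to 2665 (without MSC KO 2). Receptors passing numbered 2 with no block (Ccr4 and Gpr15), where 1.45% of all genes passed. With small RNA symbols left out 1 passed (Gpr15), as did 0.249% of all genes. In the other alternatives that kept all 4 libraries 0 passed. The receptors at least 2-fold apart in both tables, 1 in the report (2.13% of all genes), were 2 with a pseudocount of 0.1 (3.09%). When a library was left out, the rule was applied to the remaining MSC KO and WT pairs, also across tables. It was then met by 1 to 3 receptors, the 3 being 1 higher and 2 lower without MSC KO 1. The share over all genes was not computed for those fits. The cause of these shifts was not tested. Deviations of same-numbered libraries from their group had a Pearson r of 0.06 across genes, and with 2 pairs this does not settle whether the numbers pair the samples. Scaling each library to its median left the median of all genes at -0.01. Depth limits Ccr9, at a few fragments per library.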
